A study of Eublepharis macularius with 23 samples.

Results

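The genes described here encode cytokines, chemokines and the receptors of the innate and adaptive immune systems, together with *PTPRC* and *SPI1*, whose products mark leukocytes. A gene was taken as a member when its symbol in both count tables was that of an interleukin or interleukin receptor, a numbered CC or CXC chemokine receptor, a CXCL chemokine, a Toll-like receptor or a *TNFRSF* gene, or when it was *PTPRC*, *SPI1*, *LOC129341169* (*IL20RA-like*) or *LOC129336460* (*CLEC4F-like*). This gave 75 members among the 22064 genes of the tables. The members were 31 interleukin receptors, 15 *TNFRSF* genes, 12 interleukins, 7 chemokine receptors, 4 *TLR* genes, 3 CXCL chemokines, the 2 leukocyte genes and *CLEC4F-like*. The symbols of all 75 were found among the RefSeq genes of the leopard gecko. *LCP1* was not analysed here, and 43 further genes whose provisional name resembles that of a member (for example *LOC129340921*, another *IL20RA-like* gene) carry a locus number in place of a symbol and lay outside the rule. *IL20RA-like* and *CLEC4F-like* were added by name with earlier results of these data known, so that their differences between genotypes are not independent observations.

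Cytokines are secreted proteins through which cells signal to each other over short distances, and each is read by a receptor built from subunits that are often shared between cytokines. Chemokines direct cell movement through receptors coupled to G proteins, *TLR* genes encode sensors of microbial molecules, and *TNFRSF* genes encode the receptors of the TNF family, which control cell survival, inflammation and the formation of skin appendages. In mammals, much of this machinery is used by the keratinocytes of the epidermis as well as by leukocytes. The interleukin-20 family acts mainly on such epithelial cells, through receptors that pair IL20RB with IL20RA or IL22RA1 and, for interleukin-22, IL22RA1 with IL10RB.

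The RNA came from dorsal skin of leopard gecko (*Eublepharis macularius*) embryos at about embryonic day 40, when melanin production has begun, and was sequenced in bulk. Hypome 1 is a recessive hypomelanistic color trait, and its libraries came from 4 homozygous, 3 heterozygous and 2 wild-type embryos, which all descended from a single pair of heterozygous parents over several breeding seasons and were genotyped by fixed variants next to the mapped interval. Hypome 3 is another recessive hypomelanistic trait, for which the 3 libraries whose columns are named heterozygous were used. The incubation temperature favored females, and the embryos were not sexed. Each library is 1 embryo, and fewer cells of a type cannot be told apart from less RNA per cell in bulk tissue.

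Depth was 32455975 to 52017277 counts per library in Hypome 1 and 16826633 to 21208295 counts in Hypome 3. Genes that mark the tissue were present, with *DSP* of the epidermis at a median of 474 TPM and *PMEL* of the pigment cells at 998 TPM in the Hypome 1 libraries. TPM values are counts divided by gene length and scaled to a common total, and were used to compare levels between genes, whereas CPM values, counts scaled to a common total and normalized between libraries with the TMM method, were used to compare libraries for the same gene. Homozygous replicate 1 stood apart by the lowest TMM factor, 0.780 against 0.963 to 1.08 in the other 8 libraries, and by the highest sum of skeletal muscle genes, 3947 CPM against 19.2 to 77.1 CPM in the other homozygous and 237 to 2921 CPM in the heterozygous libraries. Heterozygous replicate 2 had the lowest sum of keratinocyte genes. Even values made up 57.8% to 65.5% of mid-range counts in each Hypome 1 library but 49.9% to 50.0% in Hypome 3, so that some fragments may have been counted as 2, and a count as low as 2 may be a single fragment.

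Of the 75 members, 43 reached a median of at least 1 TPM over the 9 Hypome 1 libraries and 46 did so over the 3 Hypome 3 libraries, with 42 in common. The chemokine *CXCL14*, which the epithelium of mammalian skin makes without stimulation, was far above the rest with a median of 2101 TPM and values from 1021 TPM in homozygous replicate 1 to 2686 TPM in homozygous replicate 3. The receptor subunit *IL20RB* came next with 345 TPM, and then *TNFRSF12A* with 38.5 TPM, which encodes the receptor of the cytokine TWEAK. In all, 17 members had a median of at least 10 TPM in the Hypome 1 libraries. The medians of the members in the Hypome 3 and the Hypome 1 heterozygous libraries had a Spearman rho of 0.98 over the 72 members with a count in any library, which is a correlation across genes that share gene length and annotation.

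**Figure D1:**
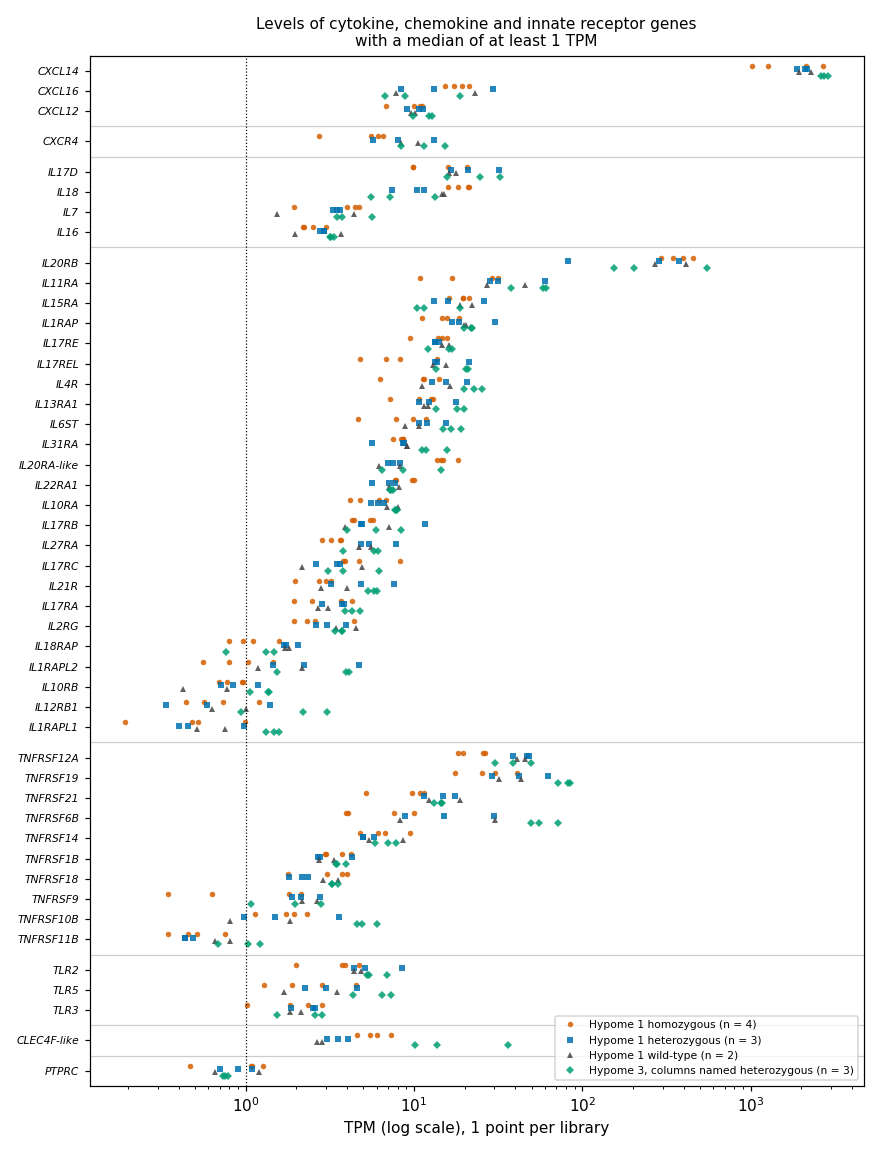
TPM of each member with a median of at least 1 TPM in either table, on a log axis, with 1 point per library and grey lines between the roles (from the top: CXCL chemokines, chemokine receptors, interleukins, interleukin receptors, *TNFRSF* genes, *TLR* genes, *CLEC4F-like*, *PTPRC*). *CXCL14* lies rightmost with a median of 2101 TPM in Hypome 1, *IL20RB* follows with 345 TPM, and the dotted line marks 1 TPM.

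Among the members, ligands and receptors were unevenly represented. At least 1 TPM was reached by 21 of 31 interleukin receptors, 9 of 15 *TNFRSF* genes, 3 of 4 *TLR* genes and all 3 CXCL chemokines in Hypome 1, but by 4 of 12 interleukins and by 1 of 7 chemokine receptors. The interleukins were *IL17D* with a median of 16.7 TPM, *IL18* with 15.0 TPM, *IL7* with 3.63 TPM and *IL16* with 2.77 TPM. Ligand-like genes with a locus number are not in these counts, so that the shortfall of ligands depends on naming. Some were expressed, such as *LOC129338419* (*CXCL2-like*) with 13.2 TPM and *LOC129342388* (*IL36RN-like*) with 7.11 TPM. Others were low, such as *LOC129342322* (*IL1B-like*) with 0.45 TPM and *LOC129340730* (*IL27-like*) with 0.06 TPM. No count was found in any of the 12 libraries for *IL10*, *IL22* and the chemokine receptor *CCR10*, and *IL11* had no more than 3 counts in any library. A count of 0 allows up to 3 counts, which is 0.0552 to 0.185 CPM in these libraries, and covers counting error only. In Hypome 1 this allowance is too small where mates were counted separately. In this skin some receptor subunits were thus measured while the ligands examined for them were low or had no count. *IL11RA* had a median of 29.0 TPM and *IL6ST*, its signalling partner, 10.7 TPM. *IL11* and *IL6* stayed below 1 TPM in all but wild-type replicate 2, in which *IL6* had 1.03 TPM. Other cytokines that share *IL6ST* were not examined. *IL10RA*, which encodes a receptor of the undetected *IL10*, had 6.16 TPM.

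Genes named for the subunits of the interleukin-20 family receptors were all detected, although IL20RA was represented only by *IL20RA-like*, a provisional name. In Hypome 1, *IL20RB* had a median of 345 TPM, *IL20RA-like* 8.21 TPM, *IL22RA1* 7.74 TPM and *IL10RB* 0.77 TPM. Of their ligands, *IL20* had 5 counts in heterozygous replicate 1 and none in the other 11 libraries, *IL22* had none, and *LOC129330398*, an *IL20-like* gene outside the rule, had none either. The rule takes any interleukin symbol, and no member was named *IL19*, *IL24* or *IL26*.

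The chemokine *CXCL12* had a median of 10.1 TPM, its receptor *CXCR4* 6.59 TPM and the atypical receptor *ACKR3*, which also binds it, 38.9 TPM. *CXCL16*, a chemokine anchored in the membrane, had 17.3 TPM, whereas its receptor *CXCR6* had at most 22 counts in any library. Of the Toll-like receptors, *TLR2* (bacterial lipoproteins) had 4.42 TPM, *TLR5* (flagellin) 2.83 TPM and *TLR3* (double-stranded RNA) 2.13 TPM. *TLR4* (lipopolysaccharide) had at most 10 counts in a library, and its partner *LY96* 5.45 TPM. Of genes that transmit receptor signals, the adaptor *MYD88* of TLR and interleukin-1 receptor signalling had 21.6 TPM. In JAK and STAT signalling, the kinase *JAK1* had 18.7 TPM and the transcription factor *STAT3* 42.4 TPM.

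The 2 leukocyte genes among the members were low, with medians of 1.07 TPM for *PTPRC* and 0.95 TPM for *SPI1* in Hypome 1. *PTPRC*, which encodes the leukocyte phosphatase CD45, had 1.77, 3.26, 2.72 and 3.43 CPM in the homozygous libraries, 1.80, 2.41 and 2.22 CPM in the heterozygous libraries and 1.65 and 2.83 CPM in the wild-type libraries. All 3 genotypes overlapped, with a log2 difference of 0.32 ± 0.36 (SE) between homozygous and wild-type samples (edgeR adjusted p = 0.845). *SPI1*, which encodes the myeloid transcription factor PU.1, had 1.09, 0.689, 1.05 and 1.13 CPM in the homozygous libraries, against 0.228 and 0.522 CPM in the wild-type libraries, from 8 to 44 counts per library. Its groups did not overlap in this comparison, and the difference did not pass adjustment (log2 1.38 ± 0.57, edgeR adjusted p = 0.550). It was 0.91 without wild-type replicate 1 and 2.10 without wild-type replicate 2, and passed in neither. The heterozygous libraries had 0.441, 0.954 and 0.833 CPM and overlapped the homozygous ones.

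Lists of leukocyte markers were summed next. Of the macrophage and myeloid list, 18 of 25 genes were found, and their sum was 95.1 to 121 CPM in homozygous, 76.6 to 115 CPM in heterozygous and 101 to 112 CPM in wild-type libraries. Its defining members *CSF1R* and *C1QB* were present with medians of 1.50 and 28.8 TPM, and *MARCO* had at most 8 counts. The sums of the 14 pan-leukocyte genes found of 16 were 154 to 178 CPM in homozygous, 125 to 150 CPM in heterozygous and 153 to 167 CPM in wild-type libraries, 47.6% of it from *ARHGDIB*. Among lymphocyte markers, *RAG2* and *CD79B* had no count in any library, *RAG1* and *EOMES* had at most 2, and *CD2* at most 8, while *GATA3*, which epidermal cells of mammals also express, made up 95.8% of the T and natural killer cell list. The 5 genes whose log2 CPM followed *PTPRC* most closely over the 9 Hypome 1 libraries were *C18H15orf61* (Pearson's r = 0.97), *SHISA8* (r = 0.94), *LOC129337563* (*GSTA4-like*; r = 0.92), *FOXO1* (r = 0.90) and *TBC1D12* (r = 0.89). These are the highest of all genes, given as a description, and none of them is a leukocyte marker in the lists used.

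**Figure D2:**
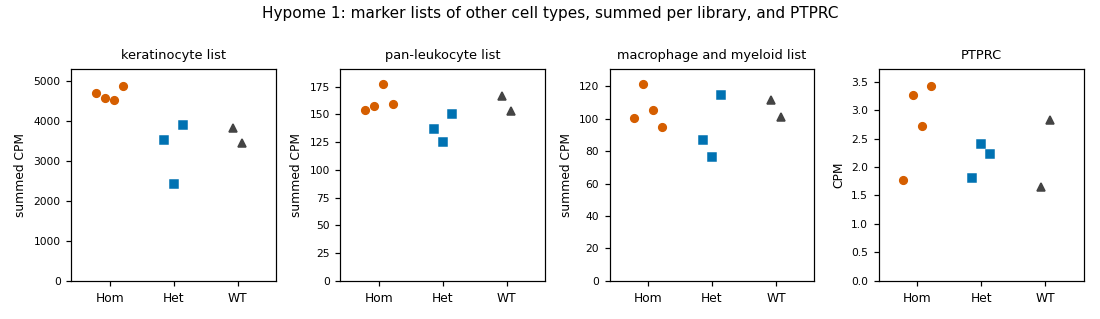
Summed CPM of the keratinocyte, pan-leukocyte and macrophage lists and CPM of *PTPRC* in each Hypome 1 library (1 point per library, axes from 0). The keratinocyte sums of the 4 homozygous libraries, 4518 to 4875 CPM, lie above all others, and the other 3 panels overlap between homozygous and wild-type libraries.

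The first question of the design was which members differ between homozygous and wild-type skin. A total of 58 members passed edgeR's filter on low counts and 17 did not, 4 of them *TNFRSF* genes, 7 interleukins, 3 chemokine receptors, 2 interleukin receptors and *TLR4*. None of the 58 passed an adjusted p of 0.05 in edgeR's quasi-likelihood test, in which 0.0179% of all 16751 genes tested were called. At an unadjusted p under 0.05 there were 8 members, beside 8.53% of all genes, of which 7 were higher in homozygous skin (4.97% of all genes) and 1 was lower (3.56% of all genes). The 4 homozygous libraries lay above both wild-type libraries for 11 members and below them for 5, where 9.94% and 9.52% of all genes did so. The median log2 difference was 0.08 over the members and 0.01 over all genes. With DESeq2, fitted to these 6 libraries alone, the Wald test called 5 members, *IL20RA-like*, *CLEC4F-like*, *CCR7* and *CXCR3* higher and *TNFRSF12A* lower in homozygous skin, and 2.67% of all genes. The counts of higher members, of members without overlap and of DESeq2 calls include *IL20RA-like* and *CLEC4F-like*. These were added by name with earlier results known, so that their part in the counts is not an independent observation.

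The second question was which members differ between homozygous and heterozygous skin, with the same 4 homozygous libraries in the comparison, so that its values are not independent of those above. No member passed adjustment in edgeR, where 0.0358% of all genes did. At an unadjusted p under 0.05 there were 15 members, beside 17.8% of all genes, of which 10 were higher (9.7% of all genes) and 5 lower (8.13% of all genes) in homozygous skin. The groups did not overlap for 12 members above and 2 below, beside 8.93% and 8.23% of all genes, and the median log2 difference was 0.09 over the members. DESeq2 on only these 7 libraries called 9 members, *IL20RA-like*, *CLEC4F-like*, *IL18*, *IL22RA1*, *CXCR3*, *TNFRSF14*, *TNFRSF18* and *IL17RC* higher and *TNFRSF12A* lower, and 6.36% of all genes. Here, too, the counts of higher members include *IL20RA-like* and *CLEC4F-like*, which were added by name. The heterozygous and wild-type samples gave no member with an adjusted or an unadjusted p under 0.05 in edgeR, beside 0.0% and 1.53% of all genes (0.878% higher and 0.657% lower), and DESeq2 on only these 5 libraries called none, beside 0.0103% of all genes. In that comparison 3 members lay above and 7 below without overlap, beside 6.9% and 6.02% of all genes.

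**Figure D3:**
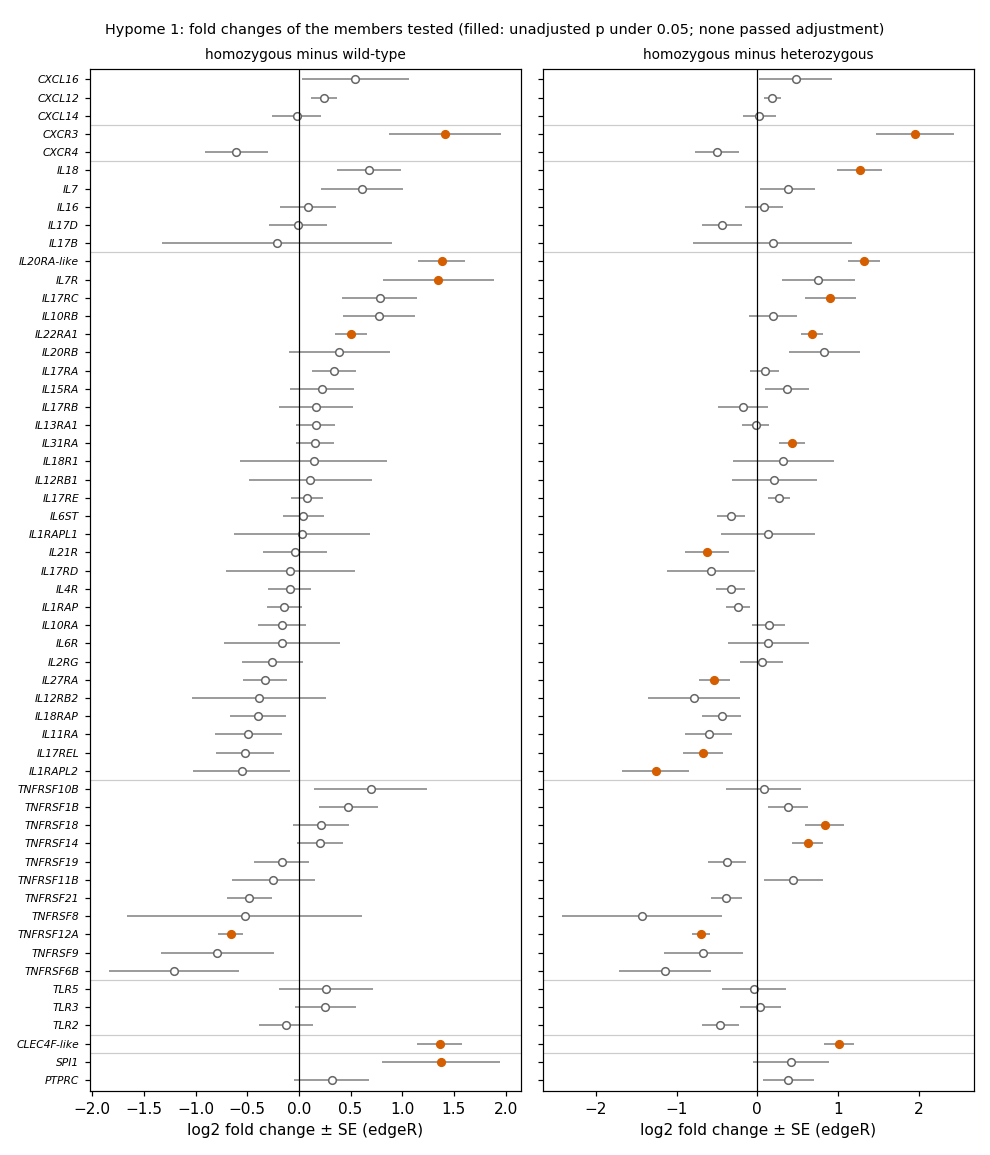
Log2 fold changes with their SE from edgeR for the members tested, homozygous minus wild-type on the left and homozygous minus heterozygous on the right, grouped by role. Filled points have an unadjusted p under 0.05 and none passed adjustment. *CCR7* and *CXCR6*, at or near 0 counts in some libraries, are not drawn.

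Among the interleukin receptors, *IL20RA-like* showed the clearest separation of homozygous skin. This gene lies on scaffold 1 of the study's own assembly, plus strand, positions 134539832 to 134573746, and has 7 annotated exon blocks. It had 40.1, 33.1, 24.7 and 36.4 CPM in the homozygous libraries, 14.0, 11.4 and 14.8 CPM in the heterozygous libraries and 15.0 and 10.8 CPM in the wild-type libraries. Every homozygous library was above every other Hypome 1 library, and the heterozygous and wild-type libraries overlapped. The log2 difference was 1.38 ± 0.23 (SE) from wild-type samples (edgeR adjusted p = 0.192) and 1.32 ± 0.20 from heterozygous samples (edgeR adjusted p = 0.0664). The exact permutation test, 2-sided, gave p = 0.0667 and 0.0286, the smallest p these designs allow. Since the gene was added by name with earlier results of these data known, its p-values are not independent evidence of a difference. Without homozygous replicate 3, its lowest homozygous value, the edgeR adjusted p was 0.0451 from wild-type and 0.0151 from heterozygous samples, and with any of the other 8 libraries left out it was 0.129 to 0.999 and 0.0516 to 0.215. The other gene of that name, *LOC129340921*, had a median of 0.42 TPM and at most 17 counts, and reads that cannot be placed uniquely between similar genes are not counted.

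*IL22RA1*, on scaffold 15 from 32672704 to 32704124, was likewise higher in every homozygous library than in the others, by a smaller difference. It had 20.9, 16.8, 17.1 and 19.1 CPM in homozygous, 10.3, 12.2 and 12.3 CPM in heterozygous and 12.5 and 13.6 CPM in wild-type libraries, and the heterozygous libraries lay below both wild-type ones. The log2 difference was 0.50 ± 0.16 from wild-type (edgeR adjusted p = 0.449) and 0.67 ± 0.14 from heterozygous samples (edgeR adjusted p = 0.0859). In TPM, which is scaled without TMM, the homozygous libraries with 7.74 to 9.97 TPM overlapped the wild-type libraries with 7.07 and 8.14 TPM. The partner subunit *IL20RB* had 453, 424, 396 and 497 CPM in homozygous libraries, 299, 73.7 and 373 CPM in heterozygous libraries and 418 and 257 CPM in wild-type libraries. Its homozygous libraries were above all heterozygous ones but overlapped the wild-type ones, and heterozygous replicate 2 was the lowest by far (log2 0.83 ± 0.44 from heterozygous samples, edgeR adjusted p = 0.343). *IL10RB* was low, with 2.46 to 2.79 CPM in homozygous, 1.83 to 2.76 CPM in heterozygous and 1.04 and 2.02 CPM in wild-type libraries (log2 0.77 ± 0.35 from wild-type, edgeR adjusted p = 0.585).

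**Figure D4:**
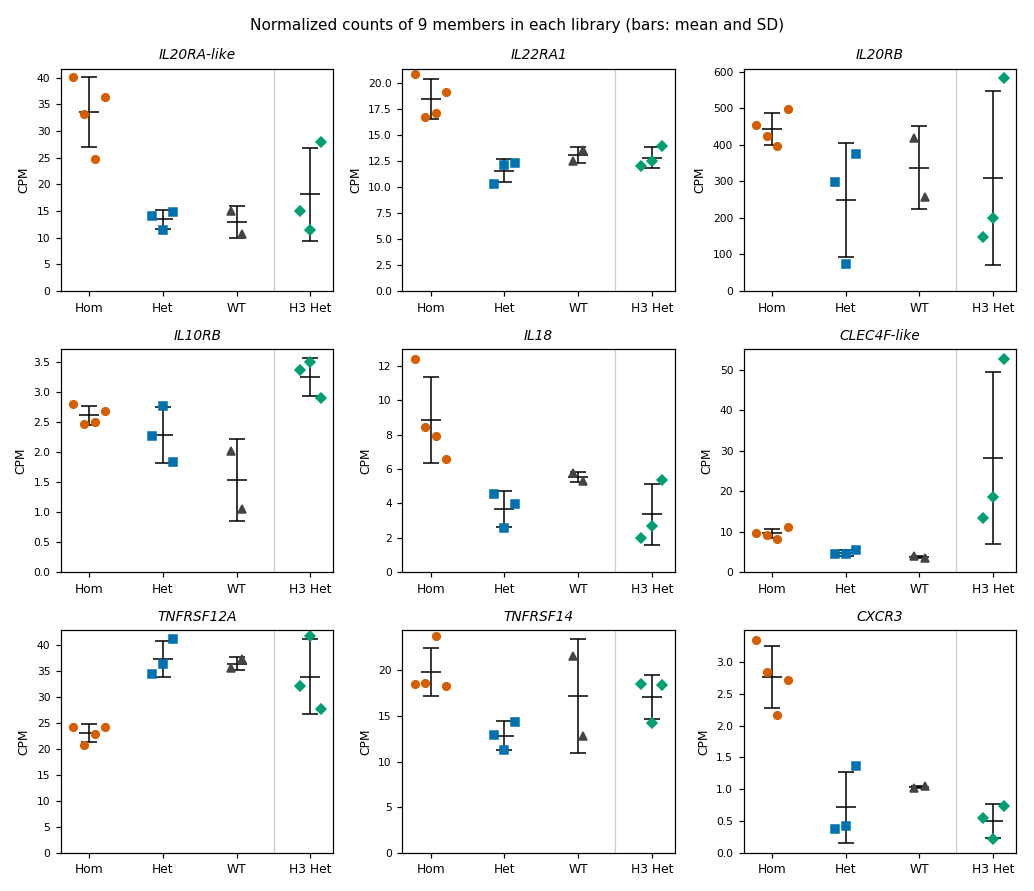
CPM of 9 members in each library of homozygous, heterozygous and wild-type Hypome 1 skin and, right of the grey line, of the Hypome 3 libraries named heterozygous, which were normalized separately. Bars are the mean and SD, and axes start at 0. The homozygous libraries lie above all other Hypome 1 libraries for *IL20RA-like*, *IL22RA1*, *IL18*, *CLEC4F-like* and *CXCR3* and below them for *TNFRSF12A*.

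The sum of keratinocyte markers was set beside these subunits. The 8 genes found of the 12 keratinocyte markers summed to 4689, 4557, 4518 and 4875 CPM in the homozygous libraries, 3518, 2406 and 3892 CPM in the heterozygous libraries and 3810 and 3431 CPM in the wild-type libraries. The homozygous libraries were above all others, and heterozygous replicate 2 was lowest, as for *IL20RB*. That library was also lowest for the pigment cell list, at 996 CPM against 1281 to 2198 CPM in the other 8 libraries, and for the macrophage and pan-leukocyte lists. None of the 8 was at 0 in any library, and all 8 were measured above 50 TPM at the median, among them the desmosomal genes *DSP* and *PKP1* and the epidermal transcription factors *GRHL1*, *GRHL3* and *TP63*. From wild-type samples the log2 difference of the 8 ran from −0.01 for *ESRP1* to 0.75 for *GRHL1*, beside 1.38 for *IL20RA-like*, 0.50 for *IL22RA1* and 0.39 for *IL20RB*. None of the list passed adjustment in edgeR, and its median log2 difference was 0.28 from wild-type and 0.35 from heterozygous samples. The T and natural killer cell list, with 7 genes tested, had larger medians in both, 0.51 from wild-type and 0.66 from heterozygous samples. Its sums, 95.8% of them *GATA3*, were 307 to 493 CPM in homozygous libraries. They were 128 to 245 CPM in heterozygous and 202 to 306 CPM in wild-type libraries, so that homozygous libraries were above all others here too. Some other lists had a median of this size or above in 1 of the 2 comparisons and a smaller one in the other. The pigment cell list had 0.17 from wild-type and 0.36 from heterozygous samples, and the erythrocyte and thrombocyte list 0.76 and 0.11. The part of any of these cell types in the receptor values was not tested.

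No interleukin receptor passed adjustment in the main edgeR fit of all 9 libraries, which used the filter on low counts. Besides *IL20RA-like* and *IL22RA1*, *IL17RC* passed in DESeq2 from heterozygous samples. *IL17RC*, a subunit of the interleukin-17 receptors, had 13.3, 11.0, 19.1 and 11.9 CPM in homozygous, 8.70, 5.42 and 7.97 CPM in heterozygous and 11.4 and 4.74 CPM in wild-type libraries. The homozygous libraries were above the heterozygous but overlapped the wild-type libraries (log2 0.91 ± 0.32 from heterozygous samples, edgeR adjusted p = 0.186, DESeq2 adjusted p = 0.0147). Its neighbor *IL17RE*, which lies 13828 bases away on scaffold 4, had 23.5 to 31.1 CPM in homozygous, 20.3 to 22.3 CPM in heterozygous and 22.5 to 26.1 CPM in wild-type libraries. *IL27RA* was lower, with 6.03, 6.09, 4.43 and 5.53 CPM in homozygous libraries against 7.69, 9.64 and 6.67 CPM in heterozygous and 6.54 and 7.31 CPM in wild-type libraries. These homozygous values lay below all others, by a log2 difference of −0.54 ± 0.19 from heterozygous samples (edgeR adjusted p = 0.194). *IL11RA* and *IL15RA*, the highest of the receptors after *IL20RB*, overlapped between all genotypes, with means of 31.5 ± 9.72 CPM and 12.5 ± 2.83 CPM in homozygous, 47.9 ± 17.3 CPM and 9.76 ± 3.90 CPM in heterozygous and 44.3 ± 14.1 CPM and 10.8 ± 1.68 CPM in wild-type libraries (SD, n = 4, 3 and 2).

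A total of 7 pairs of members lie within 200000 bases of each other, on 6 scaffolds. In the pair of *IL6ST* and *IL31RA* on scaffold 7, which are 3719 bases apart, both receptor genes were measured near 10 TPM (10.7 and 8.61 TPM). In the pair of *TNFRSF18* and *TNFRSF4* on scaffold 17, *TNFRSF18* had 2.87 TPM and *TNFRSF4* at most 14 counts in a library. *IL12RB2* and *IL23R*, *IL18RAP* and *IL18R1*, and *IL10* and *IL20* were all below 2 TPM. *IL21R* and *IL4R* on scaffold 12 had 3.19 and 12.8 TPM, and the exons of *IL4R* share bases with *NSMCE1* on the opposite strand, which makes its counts uncertain, since it is not stated whether strand was used in counting. The same holds for *IL12RB1*.

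Of the interleukins, *IL18* differed most. Its product belongs to the interleukin-1 family, and mammalian keratinocytes and macrophages store it as a precursor. The gene lies on scaffold 14 from 4824766 to 4837104 and had 12.4, 8.45, 7.95 and 6.60 CPM in homozygous, 4.54, 2.54 and 3.94 CPM in heterozygous and 5.75 and 5.31 CPM in wild-type libraries. The homozygous libraries were above all others and the heterozygous below both wild-type libraries. The log2 difference was 1.27 ± 0.27 from heterozygous samples (edgeR adjusted p = 0.0883, DESeq2 adjusted p = 0.00151) and 0.68 ± 0.31 from wild-type samples (edgeR adjusted p = 0.585). Its receptor genes *IL18R1* and *IL18RAP* did not separate the genotypes in both comparisons: *IL18R1* had 0.170 to 1.55 CPM in homozygous, 0.578 to 1.25 CPM in heterozygous and 0.797 and 1.09 CPM in wild-type libraries. *IL18RAP* had 2.14 to 3.49 CPM in homozygous, 3.34 to 4.47 CPM in heterozygous and 3.59 and 4.01 CPM in wild-type libraries. *IL17D* had 7.57 to 14.5 CPM in homozygous, 11.7 to 20.3 CPM in heterozygous and 11.5 and 11.9 CPM in wild-type libraries, and *IL7*, a growth factor of lymphocytes, 3.34 to 6.48, 3.67 to 3.92 and 1.74 to 4.74 CPM in the same order of genotypes. Both overlapped between the genotypes.

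*TNFRSF12A* was the member with the clearest lower values in homozygous skin. It lies on scaffold 12 from 62661877 to 62667569 and had 24.3, 20.7, 22.9 and 24.3 CPM in homozygous, 34.5, 36.4 and 41.2 CPM in heterozygous and 35.6 and 37.3 CPM in wild-type libraries. The homozygous range of 20.7 to 24.3 CPM was well below the lowest value of the other genotypes. The log2 difference was −0.66 ± 0.12 from wild-type samples (edgeR adjusted p = 0.236, DESeq2 adjusted p = 0.00767) and −0.70 ± 0.11 from heterozygous samples (edgeR adjusted p = 0.0821, DESeq2 adjusted p = 2.46e-04). Without homozygous replicate 3 the edgeR adjusted p from heterozygous samples was 0.0363, and with any of the other 8 libraries left out it was 0.0582 to 0.215. In TPM the groups did not overlap either, with 18.3 to 26.5 TPM in homozygous, 38.5 to 47.9 TPM in heterozygous and 40.8 and 45.3 TPM in wild-type libraries.

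The other *TNFRSF* genes described here differed from heterozygous skin alone or not at all. *TNFRSF14*, which encodes the receptor HVEM, had 18.5, 18.6, 23.7 and 18.3 CPM in homozygous libraries and 12.9, 11.2 and 14.4 CPM in heterozygous libraries, without overlap (log2 0.62 ± 0.20, edgeR adjusted p = 0.150, DESeq2 adjusted p = 0.0142). The wild-type libraries, with 21.6 and 12.8 CPM, spanned most of that range. *TNFRSF18*, the receptor GITR of lymphocytes, had 3.07 to 4.55 CPM in homozygous and 2.10 to 2.61 CPM in heterozygous libraries (log2 0.83 ± 0.24, edgeR adjusted p = 0.130, DESeq2 adjusted p = 0.0315), and 3.98 and 3.05 CPM in the wild-type libraries. *TNFRSF19* (TROY), the second highest of the family, had 62.1 to 94.7 CPM in homozygous, 66.5 to 129 CPM in heterozygous and 70.4 and 101 CPM in wild-type libraries. *TNFRSF21* (death receptor 6) had 12.4 to 19.4 CPM in homozygous, 18.5 to 24.5 CPM in heterozygous and 19.2 and 27.8 CPM in wild-type libraries, which overlapped (log2 −0.48 ± 0.22 from wild-type, edgeR adjusted p = 0.585). Values of *TNFRSF6B*, a decoy receptor in humans, varied widely within each genotype, with 27.0, 8.54, 13.3 and 7.83 CPM in homozygous, 54.4, 23.8 and 15.5 CPM in heterozygous and 14.7 and 50.6 CPM in wild-type libraries.

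*CLEC4F-like* is named after a C-type lectin receptor that mouse liver macrophages carry, and its name here rests on sequence likeness alone. It lies on scaffold 10 from 3007197 to 3024851 and had 9.64, 9.23, 8.26 and 11.1 CPM in homozygous, 4.34, 4.34 and 5.53 CPM in heterozygous and 3.96 and 3.48 CPM in wild-type libraries. All homozygous libraries were above all others, and all heterozygous libraries were above both wild-type libraries. This gene was also added by name with earlier results known, so that its p-values are not independent evidence of a difference. The log2 difference was 1.36 ± 0.22 from wild-type samples (edgeR adjusted p = 0.171) and 1.01 ± 0.18 from heterozygous samples (edgeR adjusted p = 0.0821), while that of heterozygous from wild-type samples was 0.35 ± 0.22 (edgeR adjusted p = 1.0). Without homozygous replicate 3 the edgeR adjusted p from heterozygous samples was 0.0354, and with any of the other 8 libraries left out it was 0.0516 to 0.215. The macrophage genes *CSF1R*, with 4.43 to 5.65 CPM in homozygous and 5.06 to 5.35 CPM in wild-type libraries, and *C1QB*, with 13.2 to 23.1 CPM in homozygous and 15.4 to 17.8 CPM in wild-type libraries, overlapped between these genotypes. Of the 17 genes tested of the macrophage and myeloid list, homozygous libraries lay above both wild-type libraries for 1 and below them for 4. The shares of all genes were 9.94% and 9.52%. From heterozygous libraries it was 1 above and 2 below, beside 8.93% and 8.23% of all genes.

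The chemokine receptors with differences were rare transcripts. *CXCR3*, which guides T cells in mammals, had 3.34, 2.85, 2.16 and 2.71 CPM in homozygous, 0.368, 0.427 and 1.36 CPM in heterozygous and 1.02 and 1.04 CPM in wild-type libraries, from 17 to 124 counts. The homozygous libraries were above all others (log2 1.41 ± 0.54 from wild-type, edgeR adjusted p = 0.514, DESeq2 adjusted p = 0.0160). From heterozygous samples the log2 difference was 1.96 ± 0.48 (edgeR adjusted p = 0.106), and it was 2.79 without heterozygous replicate 3 (edgeR adjusted p = 0.0490) but 0.92 with season in the fit (edgeR adjusted p = 0.999). With any of the other 8 libraries left out it did not pass. Its exons share bases with those of *LOC129342988* (*CXCR3-like*) on the same strand, so that its counts are uncertain. *CCR7*, a receptor of lymphocytes and dendritic cells that move to lymphoid tissue, had 18, 36, 17 and 11 counts in the homozygous libraries, 11, 2 and 6 counts in the heterozygous libraries and 2 and 0 counts in the wild-type libraries. With the wild-type libraries set to 3 counts each, its mean was 7.28-fold higher in homozygous skin (edgeR adjusted p = 0.422, DESeq2 adjusted p = 0.0378). This fold is not a lower bound, since 3 counts allow for a count of 0 but not for the 2 counts of wild-type replicate 1. Mates counted separately would also make that allowance too small. The lymphocyte markers *LCK* and *CD28* were also rare, with 4 to 30 and 6 to 34 counts per library, without a difference that passed the test. Of the 7 genes tested of the T and natural killer cell list, 5 were higher and 2 lower in each comparison with homozygous samples. At an unadjusted p under 0.05 in edgeR, 2 were higher in each, beside 4.97% and 9.7% of all genes. From heterozygous samples 1 was lower, beside 8.13% of all genes, and none of the list passed adjustment. *CXCR4* was the one chemokine receptor with a median above 1 TPM over the 9 Hypome 1 libraries. It had 3.34 to 5.97 CPM in homozygous, 4.74 to 9.49 CPM in heterozygous and 6.77 and 8.05 CPM in wild-type libraries, with homozygous below wild-type libraries (log2 −0.61 ± 0.30, edgeR adjusted p = 0.631).

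The chemokines and Toll-like receptors gave no difference that passed a test. *CXCL14* had 1348, 1336, 2307 and 1993 CPM in homozygous libraries, 1919, 1621 and 1604 CPM in heterozygous libraries and 1673 and 1872 CPM in wild-type libraries, and the homozygous libraries were both the lowest and the highest (log2 −0.02 ± 0.24 from wild-type, edgeR adjusted p = 0.987). *CXCL12* had 27.7 to 32.3 CPM in homozygous against 25.5 and 25.6 CPM in wild-type libraries, without overlap but by a log2 difference of 0.25 ± 0.12 (edgeR adjusted p = 0.635). In TPM these groups overlapped, with 6.81 to 11.1 TPM in homozygous and 9.59 and 10.1 TPM in wild-type libraries. *CXCL16* varied from 12.8 to 22.4 CPM in homozygous, 5.69 to 18.1 CPM in heterozygous and 5.09 to 16.0 CPM in wild-type libraries. *TLR2* had 5.18 to 7.98 CPM in homozygous, 7.33 to 12.8 CPM in heterozygous and 7.09 and 8.25 CPM in wild-type libraries. *TLR5* averaged 6.81 ± 2.87 CPM in homozygous and 5.69 ± 2.97 CPM in wild-type libraries (SD, n = 4 and 2) and had 5.00 to 9.12 CPM in heterozygous libraries, and *TLR3* had 2.59 to 4.71 CPM in homozygous, 3.05 to 4.30 CPM in heterozygous and 3.04 and 3.35 CPM in wild-type libraries. All 3 overlapped throughout.

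Other genes of these pathways were taken from 7 pathway lists. In edgeR, none of the 25 tested genes of TLR and interleukin-1 receptor signalling, 22 of NF-kappa-B, 26 of JAK and STAT, 15 TNF superfamily ligands and related receptors, 7 other chemokine genes, 21 interferon response genes and 19 inflammasome and complement genes passed adjustment in any comparison. The median log2 difference between homozygous and wild-type samples lay between −0.14 (interferon response) and 0.28 (inflammasome and complement), beside 0.01 over all genes. An unadjusted p under 0.05 in that comparison was found for 1 higher gene in each of 5 lists and for 1 lower gene in each of 2 lists, that is in 0.0% to 13.3% of the genes of a list, beside 8.53% of all genes. Between homozygous and heterozygous samples that share was 4.76% to 40.0%, beside 17.8% of all genes. It was highest for the TNF superfamily list, with 2 of 15 genes higher and 4 lower. The higher ones were *TNFSF10*, the death ligand TRAIL (log2 0.44 ± 0.13, edgeR adjusted p = 0.130), and *TNFSF13B*, the B cell factor BAFF (log2 0.66 ± 0.20, edgeR adjusted p = 0.139). Among the lower ones were *EDA*, the ectodysplasin of skin appendages (log2 −0.40 ± 0.15, edgeR adjusted p = 0.221), and one of its receptors, *EDA2R* (log2 −0.58 ± 0.19, edgeR adjusted p = 0.165). *NFKBIZ*, a gene of the NF-kappa-B list that is induced by TLR and interleukin-17 signals in mammals, averaged 5.53 CPM in homozygous and 2.55 CPM in wild-type libraries, without overlap (log2 1.12 ± 0.37, edgeR adjusted p = 0.457, DESeq2 adjusted p = 0.0138). *SIGIRR*, a receptor that dampens interleukin-1 and TLR signals, had 28.5 ± 5.81 CPM in homozygous and 14.4 ± 3.82 CPM in heterozygous libraries (mean ± SD, n = 4 and 3), and its homozygous libraries were above all others (log2 0.99 ± 0.23 from heterozygous samples, edgeR adjusted p = 0.0990).

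Season and RNA integrity were compared within the Hypome 1 libraries. Seasons were taken from the library names in the study's sample list and joined by replicate number, a join that is uncertain. Heterozygous replicates 1 and 2 were the only libraries of the first season. Wild-type replicate 2 and homozygous replicates 1 and 4 came from the second season and the other 4 libraries from the third. In the second season *IL20RA-like* had 40.1 and 36.4 CPM in homozygous libraries against 10.8 CPM in the wild-type library, and in the third 33.1 and 24.7 CPM in homozygous libraries against 14.8 CPM in the heterozygous and 15.0 CPM in the wild-type library. *CLEC4F-like* had 9.64 and 11.1 against 3.48 CPM in the second season and 9.23 and 8.26 against 5.53 and 3.96 CPM in the third. *TNFRSF12A* had 24.3 and 24.3 against 37.3 CPM and then 20.7 and 22.9 against 41.2 and 35.6 CPM. In the second season there was no heterozygous library. In both seasons the homozygous values of these 3 members, chosen with their differences known, lay on the same side of the other libraries. With season in the fit, 8 members had an unadjusted p under 0.05 between homozygous and wild-type samples, beside 7.3% of all genes, and 4 in place of 15 between homozygous and heterozygous samples, beside 4.01% of all genes in place of 17.8%. Homozygous replicates 1 and 4 were listed with the lowest RNA integrity. Without them 7 members had an unadjusted p under 0.05 from wild-type samples, beside 4.88% of all genes, and 14 from heterozygous samples, beside 1665 of 16588 genes (10%).

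In the Hypome 3 libraries *CXCL14* and *IL20RB* were again the highest members, with medians of 2738 and 202 TPM, and *TNFRSF19* followed with 81.7 TPM. Genotypes could not be compared there, because the 3 other columns of that table are named wild-type, a group that the labels do not give for Hypome 3, and match no sample by name. This leaves a doubt over the naming of the columns in that table, those used included. The levels of the 2 traits were set side by side without a test, since parents, season, depth and counting differ with the table. Of 47 members expressed in either set of libraries named heterozygous, 13 were above and 1 (*IL18RAP*) below the Hypome 1 heterozygous libraries without overlap in TPM, and the shares among 14988 genes were 20.9% and 4.28%. *TNFRSF6B* had 55.1, 72.1 and 49.6 TPM in Hypome 3 and 29.8, 15.1 and 8.86 TPM in Hypome 1 heterozygous libraries. *CLEC4F-like* had 10.2, 13.8 and 36.3 TPM in Hypome 3 and 3.04, 3.51 and 4.04 TPM in Hypome 1 heterozygous libraries, so that all Hypome 3 values also exceeded those of homozygous Hypome 1 skin, 4.56 to 7.34 TPM. Hypome 3 replicate 3 had the highest value of its group for *CLEC4F-like*, for *IL20RA-like* (8.66, 6.46 and 14.5 TPM) and for *IL20RB* (154, 202 and 550 TPM), and also the highest keratinocyte sum, 5202 CPM against 3281 and 3458 CPM. The part of keratinocyte content in these values was not tested.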

How the data were processed

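The authors aligned paired-end reads of stranded mRNA libraries to their own assembly with STAR 2.7.10b and transferred RefSeq gene models to it with LiftOn. By their description, unique pairs were counted per gene with featureCounts (Subread 2.0.6). The depth and even values of the Hypome 1 counts point instead to mates counted separately. They deposited raw counts per gene, without normalization. Members and gene lists were chosen with earlier results of these data known. edgeR 4.0.16 in R 4.3.3 tested 16751 genes (minimum count 10, minimum total 15) with TMM normalization and 1 quasi-likelihood fit of the 9 Hypome 1 libraries, 2-sided, with Benjamini-Hochberg adjustment over all genes. Residual degrees of freedom were 6, and the biological coefficient of variation was 0.301. The fit was tested on simulated data. Exact permutation tests used log2 of CPM plus 0.1. TPM was computed from counts and gene lengths. Groups at or under 3 counts in every library were set to 3 for a fold. DESeq2 1.42.0, edgeR on the compared groups, DESeq2 size factors, no filter, a replicate block, season, integrity, halved counts and each library left out were alternatives. The single-gene text covers the 2 leukocyte genes, *IL20RA-like*, *CLEC4F-like*, the 3 highest members per role by median TPM, members called by edgeR or DESeq2, and the 5 largest differences per direction and comparison with homozygous samples among members with an unadjusted p under 0.05 and no overlap. *IL10RB*, *IL18R1*, *IL18RAP*, *IL17RE*, *TNFRSF6B*, *CXCR6*, genes of the pathway and marker lists and members named in the first paragraphs on levels or as neighbors were named after their values were seen. A row broken over 5 lines (*NEB*) and 3 columns of the Hypome 3 table that match no sample were not used. Hypome 2 was not analysed here. Each Hypome 1 library is 1 embryo of the same parents, and the edgeR and DESeq2 p-values set genotype differences against the spread between these embryos.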

Additional observations from a re-analysis of the deposited data

Results flagged for a closer look

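In the 4 homozygous libraries 3 of 27 members had a value far from the other 3, by the ratio of its gap to the range of the group, which chance exceeds in about 1 of 20 groups. *CXCL16* had 22.4 CPM in homozygous replicate 1, against 12.8 to 13.2 CPM in the others. *TNFRSF14* had 23.7 CPM in homozygous replicate 3, against 18.3 to 18.6 CPM. *SPI1* had 0.689 CPM in homozygous replicate 2, from 30 counts, against 1.05 to 1.13 CPM.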

How the results depend on the processing

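Between homozygous and wild-type samples edgeR called 0 members and DESeq2 3 on all 9 libraries and 5 on the groups compared. Leaving out 1 library gave 0 to 1, with *IL20RA-like* called without homozygous replicate 3 (edgeR adjusted p = 0.0451). Between homozygous and heterozygous samples edgeR called 0, DESeq2 8 on all 9 libraries and 9 on the groups compared, edgeR without a filter 1 (*IL20RA-like*), and leaving out 1 library 0 to 3: *IL20RA-like*, *CLEC4F-like* and *TNFRSF12A* without homozygous replicate 3, and *CXCR3* without heterozygous replicate 3 (log2 2.79, edgeR adjusted p = 0.0490). Members with an unadjusted p under 0.05 numbered 8 between homozygous and wild-type samples (6 to 11 with 1 library left out), 15 between homozygous and heterozygous samples (10 to 22, and 4 with season) and 0 between heterozygous and wild-type samples (0 to 3, and 1 each with DESeq2 on all 9 libraries, the replicate block and season). After genotype means were subtracted, same-numbered libraries correlated from −0.22 to 0.16 and differently numbered ones from −0.33 to 0.33. With so few libraries per genotype these values cannot decide whether replicate numbers pair the samples. With the replicate block no member was called, and 11 and 18 had an unadjusted p under 0.05 in the comparisons with homozygous samples. Of 21 log2 differences followed, 19 kept their sign in all alternatives run. *PTPRC* reversed to −0.017 between homozygous and wild-type samples without wild-type replicate 1 (range −0.017 to 0.76), and *SPI1* to −0.060 between homozygous and heterozygous samples with season. *CXCR3* from heterozygous samples was 0.92 at the lowest, with season. Members at 1 TPM or more numbered 39 to 51 in Hypome 1 and 41 to 54 in Hypome 3 with other thresholds, and 42 to 44 and 45 to 48 with 1 library left out. Depth limits *CCR7*, *CXCR6*, *SPI1* and the 17 members not tested, and 2 wild-type libraries limit the tests.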
